A study of Mus musculus with 4 samples.

Results

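The genes described here are 10 genes of the choroid plexus epithelium, taken from a table of 46072 mouse genes by symbol: Folr1, Kl, Clic6, Aqp1, Enpp2, Prlr, Sostdc1, Otx2, F5 and Tmem72. Ttr, the transthyretin gene that dominates this epithelium, is left out of the list by its rule and serves as a reference. The study made poly(A) RNA-seq from brain vasculature of wild-type mice that had no treatment, and its title describes brain fixed by perfusion, cells found by immunolabelling and capture with a laser. All 4 libraries are labelled as dissected endothelial cells and form 1 group, called replicates 1 to 4. The strain, the age, the sex, the antibody and whether each library came from its own mouse are not stated in the sources used here, so p-values measure only the spread between libraries, which may be technical. Values are FPKM, which scales fragments to the length of the transcript and the size of the library, and their sums per library ran from 448678 to 482882. The depth of the libraries is unknown, and counting intervals are therefore not given.

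The choroid plexus hangs in the brain ventricles as a sheet of cuboidal epithelium over a core of loose tissue with leaky, fenestrated capillaries. The epithelium makes cerebrospinal fluid by moving ions and water, and its tight junctions form the barrier between blood and that fluid. It also carries vitamins and hormones across and releases proteins into the fluid. These are epithelial genes, while the libraries are labelled endothelial.

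The table was checked for other genes of the same epithelium. Of 22 further choroid plexus genes, 19 lay above 1 FPKM, 1 below and 2 passed in neither direction. Of all 25206 genes tested, 47.7% lay above that level and 40.1% below. Ttr measured 13933, 11398, 15859 and 16782 FPKM in replicates 1 to 4. The next were Ecrg4, a secreted peptide precursor, at 303 ± 48.3 FPKM (SD, n = 4), Kcnj13, an inward rectifier potassium channel, at 180.5 ± 28.6, and Calml4 at 102 ± 16.6. The lowest were Wfikkn2 at 0.526 ± 0.338 and Slco1a5 at 0.899 ± 0.291. Markers of the labelled cell type were also measured: of 17 pan-endothelial genes 14 lay above 1 FPKM and 1, Erg, lay below.

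Promoter windows from RefSeq (GRCm38.p6, 250 bases before to 50 after an annotated start) were found for 6 of the 10 members, in 11 windows. Otx2 encodes a homeodomain protein, and proteins of its class are known to bind the letters TAATCC. These letters were searched on both strands. They occur in 7.06% of all 32851 windows and in 1 of the 11 windows of members, a start of Otx2 itself on the minus strand. That window is printed first, with the match in capitals as its reverse complement, beginning at base 40. The other 10 windows hold no match, which says only that these letters are absent there. The windows of Kl and Tmem72 are printed for their contrast in CpG pairs, shown in capitals: 19 in Kl and 7 in Tmem72, where the median over all windows is 7. Of all windows, 28.1% hold at least as many pairs as that of Kl.
Otx2, chr14:48665060-48665359, minus strand: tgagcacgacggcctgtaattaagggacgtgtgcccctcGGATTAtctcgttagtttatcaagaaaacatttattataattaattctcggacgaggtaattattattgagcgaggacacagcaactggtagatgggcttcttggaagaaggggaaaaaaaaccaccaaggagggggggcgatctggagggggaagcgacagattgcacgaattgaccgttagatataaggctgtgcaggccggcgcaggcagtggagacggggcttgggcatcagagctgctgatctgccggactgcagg
Kl, chr5:150952357-150952656, plus strand: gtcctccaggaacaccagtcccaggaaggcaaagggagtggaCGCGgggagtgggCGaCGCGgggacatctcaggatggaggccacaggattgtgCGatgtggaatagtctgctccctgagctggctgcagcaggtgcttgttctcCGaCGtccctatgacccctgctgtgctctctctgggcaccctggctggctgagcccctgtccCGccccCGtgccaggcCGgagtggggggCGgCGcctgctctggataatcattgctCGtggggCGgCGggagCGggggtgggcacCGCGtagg
Tmem72, chr6:116716709-116717008, minus strand: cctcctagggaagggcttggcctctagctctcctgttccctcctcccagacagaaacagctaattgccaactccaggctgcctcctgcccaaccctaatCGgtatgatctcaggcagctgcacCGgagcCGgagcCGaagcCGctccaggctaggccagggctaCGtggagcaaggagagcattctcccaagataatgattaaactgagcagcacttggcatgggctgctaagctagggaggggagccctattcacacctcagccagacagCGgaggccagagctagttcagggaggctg

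All 10 members lay above 1 FPKM (limma on log2(FPKM + 1), adjusted over all 25206 genes tested). Over all genes tested, 47.7% lay above 1 FPKM and 40.1% below it. The member median was 20.8, 15.3, 22.6 and 21.9 FPKM in replicates 1 to 4, against a median of 1.45 FPKM over all genes tested. With each library rescaled to the same sum (TPM), 13693 genes lay above and 7474 below, in place of 12034 and 10104, and all 10 members still lay above. The members spanned from rank 56 of the table for Enpp2 to rank 9338 for Tmem72.

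The receptors came first in the order of roles. Folr1, the folate receptor that carries folate from blood into cerebrospinal fluid (ENSMUSG00000001827, chromosome 7, 101858331 to 101870788, GRCm38), measured 114, 104, 123 and 128 FPKM in replicates 1 to 4. It varied least of the members, with a CV of 9.06%, and exceeded 1 FPKM by 5.88 ± 0.06 (SE), a log2(FPKM + 1) difference (limma, adjusted p = 1.02e-07). Kl, alpha-Klotho, a co-receptor for the hormone FGF23 that is also shed into the fluid (chromosome 5, 150952607 to 150993817), measured 28.4, 17.4, 29.1 and 25.6 FPKM. Replicate 2 was the low library for Kl and the other libraries lay close together. Prlr, the prolactin receptor (chromosome 15, 10177238 to 10349180), measured 16.2, 9.06, 14.9 and 14.2 FPKM. Prlr too was lowest in replicate 2, and its highest library was 1.79 times its lowest.

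Of the channels, Clic6 lay above Prlr in 4 of 4 libraries and Aqp1 lay below all 3 receptors. Clic6, a member of the chloride intracellular channel family (chromosome 16, 92485736 to 92541243), measured 25.4, 15.8, 28.7 and 24.2 FPKM. Aqp1, the water channel of the apical membrane (chromosome 6, 55336432 to 55348555), measured 6.64, 3.32, 6.57 and 5.67 FPKM. Both had replicate 2 as their lowest library. Aqp1 had the widest range of the members, with a highest library 2.0 times its lowest, and lay 1.68 ± 0.17 (SE) above 1 FPKM on the log2 scale (limma, adjusted p = 0.000266).

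The secreted proteins held both the highest member and one of the lowest. Enpp2, autotaxin, the enzyme that makes lysophosphatidic acid (chromosome 15, 54838901 to 54952892), measured 771, 560, 818 and 756 FPKM. It made up 71.8% ± 1.35 (SD, n = 4) of the summed FPKM of the 10 members. Enpp2 is also known to be active in oligodendrocytes, whose 10 markers had a median of 85.6 ± 6.75 FPKM here, and their part in its value was not tested. The oligodendrocyte sum was 1.17 times as high in replicate 2 as in the mean of the other libraries, while Enpp2 stood at 0.717 times. Sostdc1, a secreted antagonist of BMP and Wnt signals (chromosome 12, 36314139 to 36318452), measured 61.4, 63.0, 78.8 and 83.3 FPKM. It was the single member not lowest in replicate 2, with replicates 1 and 2 low together. F5, coagulation factor V, the cofactor that speeds the making of thrombin (chromosome 1, 164151838 to 164220277), measured 8.49, 4.42, 7.91 and 6.79 FPKM, again lowest in replicate 2.

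The transcription factor Otx2, needed for the choroid plexus to form and persist (chromosome 14, 48657677 to 48673819), measured 15.3, 14.7, 16.5 and 19.5 FPKM. It varied little, with a CV of 12.8%, and its replicate 4 was the highest. Otx2 shares 154 exon bases with Otx2os1 on the opposite strand, which measured 6.88 FPKM on average, and the strand setting of the libraries is not given, so the value of each is uncertain to that extent. Tmem72, a transmembrane protein gene (chromosome 6, 116679063 to 116716913), measured 4.37, 2.34, 4.38 and 4.32 FPKM, with 3 libraries nearly level and replicate 2 apart. It lay 1.25 ± 0.16 (SE) above 1 FPKM on the log2 scale (limma, adjusted p = 0.000757). Its longest annotated transcript, of 17152 bases, matches transcripts of 111 other genes at 95% identity or more over at least 100 bases, so shared reads could touch its value. Kl matched 13 other genes by the same measure, F5 and Prlr 1 each, and the other 6 members none.

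**Figure D1:**
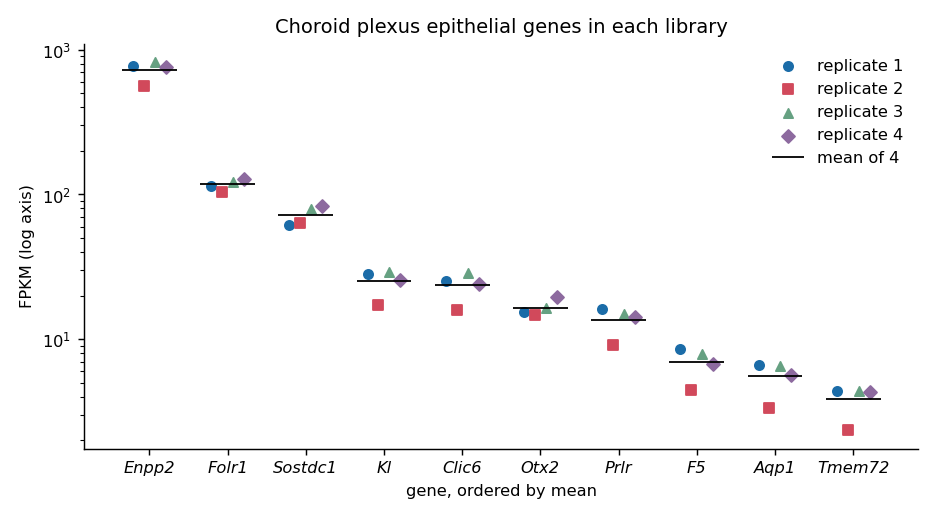
FPKM (log axis) of the 10 members in each of the 4 libraries, ordered by mean. Points are libraries and black bars are means. Enpp2 stands at 560 to 818 FPKM and Tmem72 at 2.34 to 4.38, and replicate 2 (squares) is the lowest library for 9 of the 10 genes.

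By mean FPKM, a scale per transcript length, the order from high to low was Enpp2, Folr1, Sostdc1, Kl, Clic6, Otx2, Prlr, F5, Aqp1 and Tmem72. The order of the means was the same with any 1 library left out. Of the 9 neighbouring pairs, 8 kept their order in all 4 libraries (exact 2-sided sign-flip test, p = 0.13 for each, the smallest that 4 libraries allow, and 0.141 adjusted over the 9 pairs). The pairs and their direction were taken from the means of these same libraries, so a kept order was favoured in advance. Enpp2 exceeded Folr1 by 6.18 ± 0.647 times (SD, n = 4), Folr1 exceeded Sostdc1 by 1.65 ± 0.147 times, and Prlr exceeded F5 by 1.99 ± 0.103 times, each without overlap between their libraries. Sostdc1 exceeded Kl by 2.94 ± 0.641 times, also without overlap. Kl and Clic6 were nearly level, at a ratio of 1.07 ± 0.0460. Otx2 exceeded Prlr in 3 of 4 libraries only, by 0.28 ± 0.32 (SD) on the log2 scale, a difference smaller than its spread (exact sign-flip p = 0.25). Prlr was the higher of that pair in replicate 1, and without that library all 9 pairs kept their order. For Kl and Clic6, Clic6 and Otx2, F5 and Aqp1, and Aqp1 and Tmem72, the ranges of the libraries overlapped although the order within each library held.

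Set against the labelled cell type, the members were mostly higher. Within each library, 8 of the 10 exceeded the median of the 17 pan-endothelial genes (limma, adjusted over all genes), and none lay below it, where 29.0% of all genes tested exceeded it and 61.3% lay below. The p-values against such a shared reference are in general too small, because the spread of all genes was pooled. With each gene tested on its own spread 7 members lay above. Aqp1 at 0.15 ± 0.19 (SE) on the log2 scale and Tmem72 at -0.27 ± 0.20 passed in neither direction (limma, adjusted p = 0.444 and 0.181). The call for F5, at 0.43 ± 0.19, was marginal (limma, adjusted p = 0.0282) and was lost without replicate 1 (0.34, adjusted p = 0.201), without replicate 4 (0.33, adjusted p = 0.142) and with each gene tested on its own spread (adjusted p = 0.10). Against the mean of the endothelial list in place of its median, 7 members lay above and 2, Aqp1 and Tmem72, below. The member median exceeded the pan-endothelial median by 1.84 ± 0.31 (SD, n = 4) on the log2 scale in 4 of 4 libraries (exact sign-flip p = 0.13, the smallest possible). In these bulk samples more cells of a type and more RNA per cell cannot be told apart.

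The endothelium of the choroid plexus itself is fenestrated. Of 3 markers of such vessels 2 lay above 1 FPKM and 1, Gpihbp1, passed in neither direction, where 47.7% of all genes tested lay above. Plvap, the protein of the fenestral diaphragm, measured 10.6, 12.9, 10.3 and 13.7 FPKM. Unlike most members it was not lowest in replicate 2. The other markers of such vessels differed from each other in this. Gpihbp1 had its lowest value in replicate 2, at 0.688 FPKM, or 0.471 times the mean of the other libraries. Esm1 measured 1.32, 1.86, 3.50 and 1.91 FPKM, so its lowest library was replicate 1, but replicate 2 also lay below the mean of the others. Of 8 fibroblast genes, a cell type found in the core of the choroid plexus and in the meninges, 7 lay above 1 FPKM, with Dcn, decorin, at 28.1 ± 2.05 FPKM.

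Ependyma, the ciliated lining of the ventricles, borders the choroid plexus and was chosen as a reference list for that reason. Its 10 markers had a median of 20.2 ± 3.0 FPKM (SD, n = 4), against 20.1 ± 3.33 for the members. The highest were Dynlrb2, a dynein light chain, at 58.6 ± 12.4 FPKM and Rarres2, chemerin, at 35.8 ± 7.91. A median near that of the members was not particular to ependyma. The mural list had 22.2 ± 2.43 FPKM and the microglial list 16.7 ± 1.36. Against the ependymal median within each library, 3 members, Enpp2, Folr1 and Sostdc1, lay above and 4, Prlr, F5, Aqp1 and Tmem72, below (limma, adjusted over the whole table), where 11.5% of all genes lay above and 83.3% below. Kl, Clic6 and Otx2 passed in neither direction, at 0.29 ± 0.16 (SE), 0.20 ± 0.16 and -0.27 ± 0.16 on the log2 scale (limma, adjusted p = 0.0708, 0.226 and 0.109). Without replicate 2, Kl passed as higher (0.38, adjusted p = 0.0130). Against the mean of the ependymal list 5 members lay above, with Kl and Clic6 added, and the call for Prlr was lost (-0.08, adjusted p = 0.594).

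**Figure D2:**
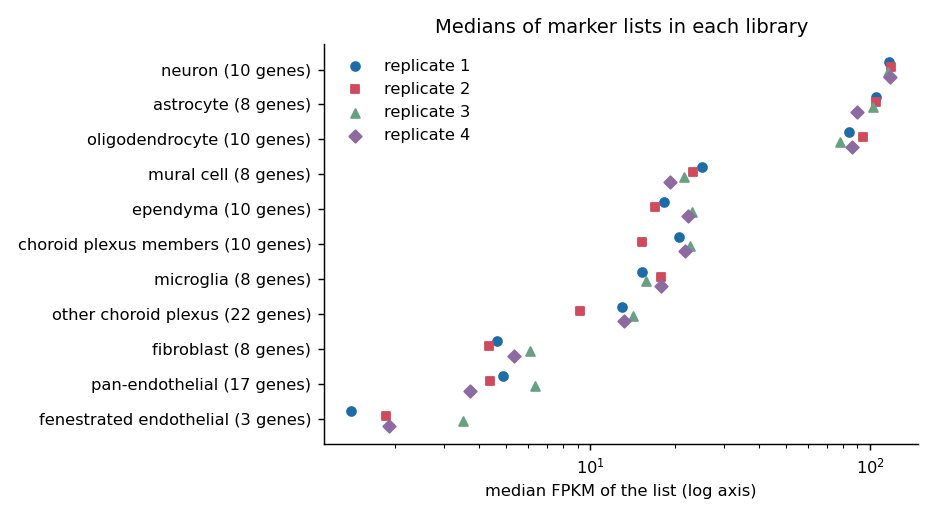
Median FPKM (log axis) of each marker list in each library, 1 row per list. The members' medians of 15.3 to 22.6 FPKM overlap those of ependyma, mural cells (19.2 to 24.9) and microglia (15.3 to 17.9). They lie above the pan-endothelial medians of 3.70 to 6.35 FPKM and below the neuronal ones of 116 to 119 FPKM.

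The members did not all follow 1 course across libraries. In replicate 1, F5 stood at 1.23 times its own mean and Sostdc1 at 0.858 times. Replicate 2 stood low for most members. It was the lowest library for 9 of 10 members and for 21 of the 22 other choroid plexus genes, with Slco1a5 the exception, while over the 13654 genes averaging 1 FPKM or more it was the lowest for 27.5%. The member sum was 1052, 794, 1127 and 1067 FPKM, so replicate 2 held 0.734 times the mean of the other libraries. Ttr gave a ratio of 0.734. Enpp2 made up 71.8% of the member sum on average. Without Enpp2 the sum of the other 9 stood at 0.778 times, and the median ratio over the 10 members was 0.617. The sum of ependymal genes stood at 0.782 times, with 5 of 10 genes lowest in that library. Sums of several other cell lists were higher there. The neuronal sum stood at 1.20 times, the astrocyte sum at 1.14, the microglial sum at 1.28 and the mural sum at 1.18. The fibroblast and fenestrated endothelial sums differed less, at 1.02 and 1.01 times. The median ratio over the 8 fibroblast genes was 0.910, and that over the 3 markers of fenestrated vessels was lower still. The pan-endothelial sum stood at 1.17 times, but the median ratio over its 17 genes was 1.02. Over all genes averaging 1 FPKM or more the median ratio was 0.997. The median ratio over the 10 neuronal genes was 1.12. The part of these other cells in the members' values was not tested. As a set, members varied more than genes averaging 1 FPKM or more. Their median SD on the log2 scale was 0.34 against 0.21, and their median CV 22.3% against 16.9%. The other choroid plexus genes had a median SD of 0.245 and a median CV of 19.7%. The ependymal list had 0.256 and 19.8%. Of the members, Folr1 and Otx2 varied less, with SDs of 0.13 and 0.17. Of the members' calls against 1 FPKM, the pan-endothelial median and the ependymal median, leaving out replicate 2 changed that of Kl against ependyma alone.

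**Figure D3:**
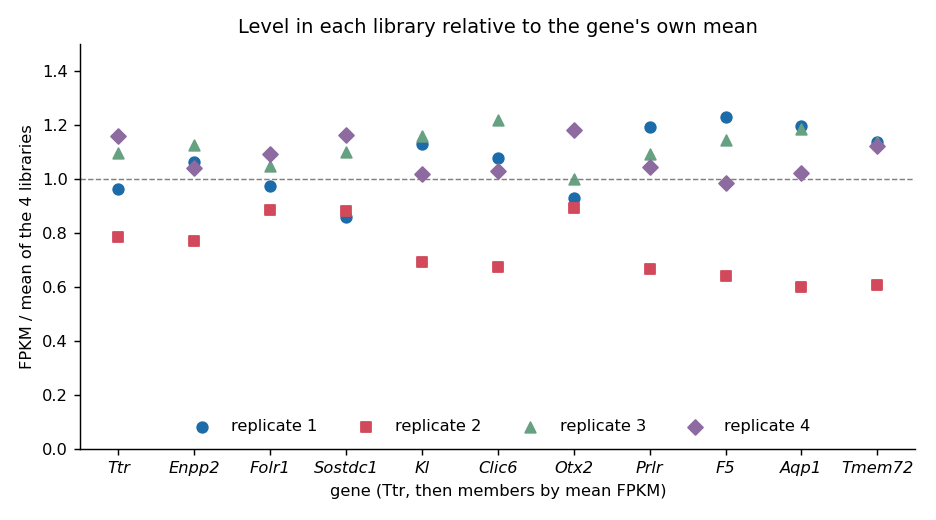
FPKM in each library divided by the gene's own mean over the 4 libraries, for Ttr and the 10 members. Replicate 2 (squares) is lowest for Ttr and for every member except Sostdc1, where replicates 1 and 2 lie side by side, and it is furthest below the mean for Aqp1 and Tmem72.

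The drop in replicate 2 was not equal among members. Folr1, Sostdc1 and Otx2 stood at 0.853, 0.846 and 0.860 times the mean of the other libraries, and Enpp2 at 0.717. Kl, Clic6, Prlr, F5, Tmem72 and Aqp1 stood between 0.528 and 0.627. The members with a longest annotated transcript over 3000 bases had a median of 0.603 (6 genes), and those up to 3000 bases a median of 0.850 (4 genes). Aqp1, at 2627 bases and 0.528 times, was the low member of the shorter class. The other choroid plexus genes had medians of 0.552 over 3000 bases (8 genes) and 0.734 up to it (14 genes). Over all genes averaging 1 FPKM or more the median ratio first rose with length and then fell. It was 0.949 up to 1000 bases, 1.08 at 1000 to 2000 and 1.10 at 2000 to 3000, then 1.04 at 3000 to 4000, 0.919 at 4000 to 6000 and 0.733 above 6000. Folr1 and Sostdc1, of 1313 and 1781 bases, fall in the class at 1.08. Otx2 and Aqp1, of 2592 and 2627 bases, fall in that at 1.10, and Enpp2 and Clic6, of 3095 and 3758, in that at 1.04. Kl, of 5828 bases, falls in the class at 0.919, and Prlr, F5 and Tmem72 in that above 6000 bases. Every member stood below the median of its class. The part of transcript length in the members' values was not tested.

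**Figure D4:**
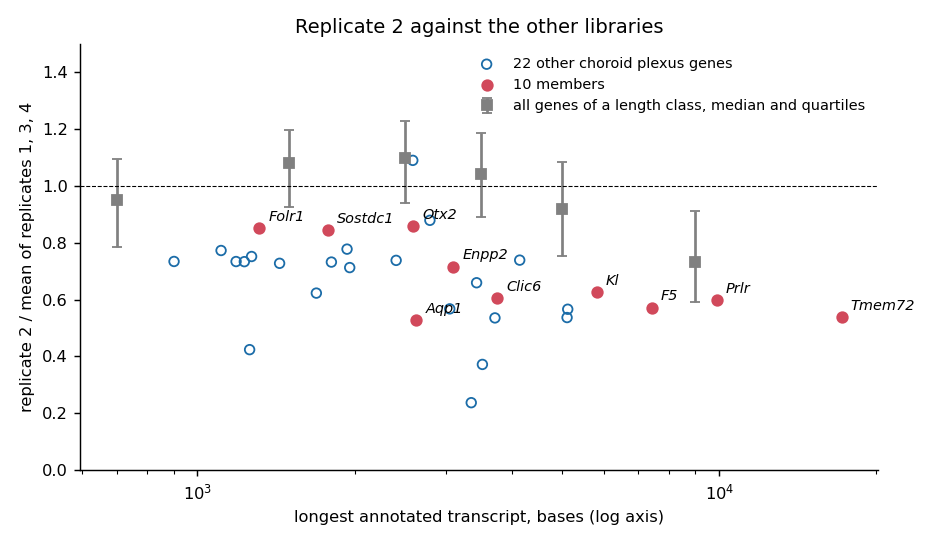
FPKM in replicate 2 divided by the mean of replicates 1, 3 and 4, against the longest annotated transcript in bases (log axis). Filled points are the 10 members, open points 22 other choroid plexus genes, and grey squares with bars the median and quartiles of all genes averaging 1 FPKM or more in 6 length classes. All 10 members lie below 1, from 0.528 for Aqp1 to 0.860 for Otx2.

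Expressed per Ttr in the same library, the member sum was 7.55%, 6.97%, 7.11% and 6.36% of the Ttr value in replicates 1 to 4, or 7.00% ± 0.491 (SD, n = 4). Without Enpp2 the other 9 members summed to 1.97% ± 0.0847 of Ttr, and their highest library was 1.10 times their lowest. Single members were less even. Folr1 per Ttr was highest in replicate 2, at 0.911%, against 0.764% to 0.820% elsewhere, and Sostdc1 and Otx2 were also highest there, at 0.553% and 0.129%. F5 and Aqp1 per Ttr ranged 1.57 and 1.64 times between libraries. Replicate 1 held the highest ratio for Kl, Clic6, Enpp2, Prlr, F5, Aqp1 and Tmem72.

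Most members were higher than the relatives listed for them. That list was a choice, with only Ghr for Prlr, Sost for Sostdc1 and F8 for F5. Of 22 relatives of 9 members, 19 were below their member in all 4 libraries, 2 were above it and 1 was mixed, in exact sign-flip tests that cannot go below p = 0.13. By mean FPKM these members also exceeded most of all genes tested, from 68.3% for Aqp1 to 99.8% for Enpp2. Such a count is therefore not particular to relatives. Folr2, a folate receptor of macrophages, measured 1.25, 0.196, 0.892 and 0.455 FPKM against 104 to 128 for Folr1, and Izumo1r, a further relative, was listed at 0 in all 4 libraries. Klb, beta-Klotho, was listed at 0 in 3 libraries and at 0.167 FPKM in replicate 1. Sost, sclerostin, did not exceed 0.0525 FPKM in any library. Otx1, a close relative of Otx2, measured 1.60 ± 0.844 FPKM (SD, n = 4) and Crx, the photoreceptor member of that family, 0.347 ± 0.0842. F8, coagulation factor VIII, measured 0.309, 0.0326, 0.411 and 0.0453 FPKM, under F5 in each. Ghr, the growth hormone receptor, measured 3.51 ± 0.566 FPKM, and Prlr exceeded it by 3.88 ± 0.810 times.

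The families of Enpp2, Clic6 and Aqp1 were broader. Enpp5 was the next of the listed Enpp genes at 80.2 ± 11.9 FPKM, and Enpp2 exceeded it by 9.33 ± 2.48 times. Clic4, a widely active relative, measured 60.5, 47.3, 51.4 and 38.0 FPKM, 2.18 times Clic6 on average and higher in 4 of 4 libraries. Clic1 was under Clic6 in 4 of 4 libraries, with Clic6 at 1.39 ± 0.288 times. Aqp4, the water channel of astrocyte endfeet, measured 39.4, 35.4, 36.5 and 27.6 FPKM, 6.75 times Aqp1 on average and higher in 4 of 4 libraries. Aqp11 could not be ordered against Aqp1, at a difference of 0.03 ± 0.55 (SD) on the log2 scale. Thus Aqp1 and Clic6 were the members with a higher listed relative, and the other 7 exceeded each of their listed relatives.

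**Figure D5:**
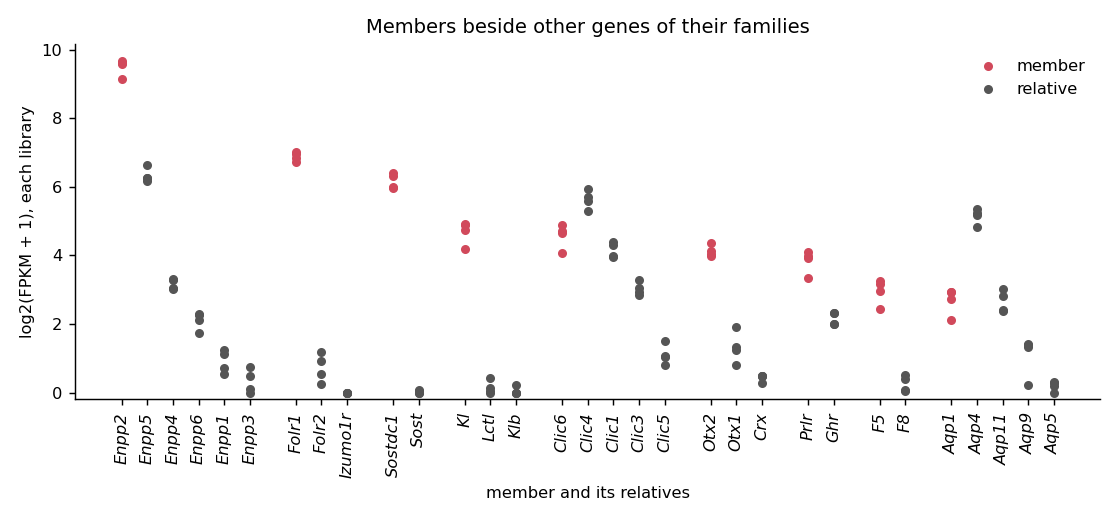
Level of each member (first in its group) and its relatives as log2(FPKM + 1), 1 point per library. Enpp2, Folr1, Sostdc1, Kl, Otx2, Prlr and F5 lie above all relatives shown, Clic6 lies below Clic4, and Aqp1 lies below Aqp4.

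Genes that act with the members were measured unevenly. Of 40 partners, 26 lay above 1 FPKM, 9 below, 3 were called in neither (limma, adjusted over the whole table), and F10 and Proc were listed at 0 in all 4 libraries. Of all genes tested, 47.7% lay above and 40.1% below. For folate, the transporters Slc46a1 and Slc19a1 measured 8.97 ± 0.828 and 9.02 ± 1.35 FPKM (SD, n = 4). For Klotho, the receptor Fgfr1 measured 7.49 ± 1.90 FPKM, the proteases Adam10 and Adam17, which shed Klotho, 10.4 ± 1.44 and 3.30 ± 0.707, and the ligand Fgf23 was at or under 0.232 FPKM in every library. For the prolactin receptor, Jak2 and Stat5b measured 4.85 ± 0.916 and 5.43 ± 1.56 FPKM and lay above 1 FPKM, while Stat5a lay below at 0.689 ± 0.0528. Prl itself, a pituitary hormone, measured 6.44, 6.05, 2.66 and 5.32 FPKM. It lay above 1 FPKM (limma, adjusted p = 0.000766), and its low library was replicate 3, unlike that of Prlr.

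For Enpp2, the receptor of its product that measured highest was Lpar1, at 25.5, 33.0, 21.7 and 26.4 FPKM, and Lpar6 measured 1.60 ± 0.123. Lpar2, Lpar3 and Lpar5 lay below 1 FPKM, and Lpar4 passed in neither direction. The phosphatases that break that product down, Plpp1 and Plpp3, measured 31.1 ± 3.93 and 93.9 ± 5.34 FPKM. For Sostdc1, its targets Bmp7 and Bmp4 measured 6.44 ± 1.08 and 1.84 ± 0.394 FPKM, the Wnt co-receptor Lrp6 measured 2.70 ± 0.946, and Lrp4 and Lrp5 lay below 1 FPKM. For F5, the clotting proteases were low or listed at 0, with F2, prothrombin, at 0.192 FPKM in replicate 1 and 0 elsewhere. The anticoagulant Pros1 measured 7.26 ± 2.41 FPKM, Thbd, thrombomodulin, 3.62 ± 1.29, and the thrombin receptor F2r 3.43 ± 0.483. Beside Aqp1, the fluid secretion genes Atp1b1, a sodium pump subunit, and Car2, carbonic anhydrase 2, measured 548 ± 27.6 and 312 ± 12.9 FPKM, and Slc12a2, a sodium, potassium and chloride cotransporter, 14.5 ± 2.70. These partners are active in many brain cells, and Slc12a2 was lowest in replicate 2, at 10.6 FPKM against 14.9 to 16.6 elsewhere, as the members were, while Atp1b1 and Car2 were highest there.

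The genes whose course over the libraries was nearest to the member sum were sought among 5747 genes averaging 10 FPKM or more, by the root mean square difference of centred log2(FPKM + 1) over 4 libraries. The first 5 were Nucks1 (0.00782), Rpl7a (0.0121), Cdr1 (0.0186), Fam19a1 (0.0197) and Trpm3 (0.0250), where the median over all these genes was 0.270. Of the 13 other choroid plexus genes at that level, 12 were among the nearest 574, with Prr32 at rank 19, Steap1 at rank 41 and Ttr at rank 116. With 4 points that share libraries, this is a description, and it does not tell which cells the genes came from. Enpp2 made up 71.8% of the member sum, so the course sought was mostly that of Enpp2.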

How the data were processed

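Poly(A) RNA-seq of 4 mouse brain libraries, labelled as laser-captured endothelial cells, was analysed. The authors deposited FPKM per gene and library. Per the submitters' processing notes, which give no role or order, the build was GRCm38 and the tools were StringTie 2.2.1, SAMtools, HISAT2 2.2.1 and bcl2fastq 2.20. How multiply matching reads and strand were handled, the filters and the annotation release are not stated in those sources. FPKM depends on the transcript length assumed, and depth is unknown.

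Columns were matched to samples by library name, and 0 columns were left out. Of 176 list entries, 2 were matched by Ensembl identifier. Values were analysed as log2(FPKM + 1), which understates differences of low genes. limma 3.58.1 (R 4.3.3) tested 25206 genes above 0 in any library against 1 FPKM, and within library against the pan-endothelial or ependymal median, 2-sided, with a mean-variance trend, Benjamini-Hochberg adjustment and a threshold of 0.05. In both within-library comparisons all genes share 1 reference, and limma then pooled the spread of all genes completely. Its p-values there are in general too small. For this reason each gene was also tested on its own 4 values, which was chosen after the data were seen. That test gave Otx2 against the ependymal median a smaller adjusted p-value, not a larger one. The fit against 1 FPKM was run on simulated data without the mean-variance trend, which does not cover the within-library comparisons. List medians and the order of members used exact sign-flip tests over 16 patterns. GENCODE M21 (GRCm38) gave positions and lengths of transcripts, and sequence matches from BLAST+ 2.17.0. Figures used matplotlib 3.10.9.

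Members and lists were chosen with earlier results of these data known. Named genes are all members, the relatives and partners, up to 4 highest and 2 lowest genes of other lists, and the 5 nearest in course. Prr32 and Steap1 were named after their values were seen. Alternatives covered pseudocount, scaling, filters, variance model, reference summary and each library left out. No comparison between groups could be made.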

Additional observations from a re-analysis of the deposited data

Results flagged for a closer look

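With 4 libraries, a value was marked where its gap to the nearest other library exceeded the 95% critical value of Dixon's ratio. Chance marks about 1 in 20 groups, and 10 of 113 groups tested met this. Among the members, Tmem72 met it, with replicate 2 at 2.34 FPKM against 4.32 to 4.38 in the others. Among relatives, Klb stood at 0.167 FPKM in replicate 1 and 0 elsewhere, Aqp9 at 0.163 in replicate 3 against 1.5 to 1.69, Enpp5 at 97.8 in replicate 2 against 71.6 to 75.9, and Crx at 0.221 in replicate 3 against 0.384 to 0.392. Among partners, Stat5a stood at 0.609 FPKM in replicate 4 against 0.713 to 0.718, Plpp1 at 25.3 in replicate 1 against 32.2 to 33.6, Lrp4 at 0.252 in replicate 4 against 0.339 to 0.350, and F2 at 0.192 in replicate 1 and 0 elsewhere. The astrocyte list median stood at 89.4 FPKM in replicate 4 against 103 to 105.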

How the results depend on the processing

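All 10 members lay above 1 FPKM under every alternative run, including rescaling to a fixed sum, which raises log2 FPKM by 1.10 on average over libraries and log2(FPKM + 1) of low genes by less. The count above the pan-endothelial median was 7 or 8 under every alternative, and 7 to 8 with a library left out. With the mean of the reference list in place of its median, 2 members lay below the endothelial level in place of 0, F5 stood at -0.068 (adjusted p = 0.645) and Aqp1 at -0.34 (adjusted p = 0.0371), both reversed in sign. The member median then exceeded the endothelial reference by 1.35 in place of 1.84, and 5 members in place of 3 lay above the ependymal reference. The count above the ependymal median was 3 to 4 with a library left out. The member median exceeded the pan-endothelial median by 1.70 to 1.92 with a library left out. With each gene tested on its own spread, Otx2 passed as below the ependymal median (-0.27, adjusted p = 0.0274). Over single members, 309 of 320 alternative values kept their direction and side of the threshold, 5 gained a call, 4 lost one and 2 reversed. The cause of these changes was not tested. No paired analysis was possible because the series has 1 group. Depth is unknown, so low values such as those of Folr2 and F8 have no stated precision beyond their spread.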
